A study of Mus musculus with 4 samples.

Results

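A set of 10 genes that mark megakaryocytes and platelets was followed on 4 one-colour arrays of sorted mouse marrow cells. The genes were taken as the probes whose printed gene name is Pf4, Ppbp, Gp9, Gp1ba, Gp1bb, Gp5, Gp6, Vwf, Itga2b or Selp, which gave 12 probes for these 10 genes, out of 61307 probes and 29353 named genes on the array. Vwf and Selp have 2 probes each and the other 8 genes have 1. The clearest pattern was in the CD45-negative cells, where 8 of the 10 genes were at least 2-fold lower at day 10 than at day 0, against 20.2% of all genes, with Ppbp 51.7-fold, Gp9 23.6-fold, Vwf 17.2-fold and Pf4 17.0-fold lower. In the LSK cells Pf4 was 2.26-fold lower and Selp 4.45-fold higher at day 10, and the other genes with a value differed by less than 2-fold. The sizes in CD45-negative cells depend on the background correction and the scale used. In log2 units, the differences of Ppbp, Gp9, Vwf and Pf4 were -5.69, -4.56, -4.10 and -4.09. With normexp, another background correction, they were -3.70, -3.81, -3.33 and -3.22. The day 10 level of Ppbp, -3.78, lay near the lowest level called well above background on its array, -4.24. Aligning the arrays on spike-in controls left 2 genes of 6 past 2-fold lower and 2 past 2-fold higher. Over all genes that scale put 177 past 2-fold lower and 15638 higher, with a median difference of 3.44.

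Megakaryocytes are the large marrow cells that shed platelets, the blood's clotting fragments. Platelets carry alpha granules filled with chemokines and adhesive proteins. Their surface receptors grip von Willebrand factor, collagen and fibrinogen where a vessel is damaged. Blood stem cells share several of these genes with megakaryocytes, and in mice Vwf and Itga2b are also used to describe stem and progenitor cells primed towards the platelet lineage.

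The study took 2 populations, each on 2 days, with 1 array a group, all from C57BL6/J mice given as 7 weeks old. The LSK cells are lineage-negative, Sca-1-positive and c-kit-positive cells, the marrow fraction that holds blood stem and early progenitor cells. At day 10 they came from CD45.1 recipients that had received 700 cGy of radiation and a graft of 30000 LSK cells from CD45.2 donors, and at day 0 from healthy mice. The CD45-negative cells, labelled as stromal, came at day 10 from such irradiated and grafted recipients and at day 0 from healthy mice. The sorting text names the gate as CD45.1-negative, which says nothing of CD45.2, the form that the donor cells carried. The number of mice behind each array is not given in the labels. Day 10 differs from day 0 in radiation, graft and time together, and these cannot be told apart.

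With 1 array a group there is no test, no standard error and no p-value, and each difference is one between 2 arrays. Levels are log2 processed signals minus the 75th percentile of their array, so a level of 0 is the array's 75th percentile. Levels of different probes are not comparable with each other, so the 4 levels of the same probe are set side by side. Signals summed over several genes are given only to set arrays side by side, and the brightest probes weigh most in them. A difference is a difference of 2 log2 levels, and a gene is counted as differing at 2-fold, a size and not a test. A fold is measured where the scanner software called the probe well above background on both arrays. Where it did so on only 1 of them, the fold is a lower bound, taken against the higher of the lowest level well above background on the dim array and the dim probe's own level, and is written "at least". For 50 probes printed several times, the standard deviation between spots was taken where the probe was well above background. Its median over these probes was 0.087 to 0.107 log2 units on each array. This gives a difference between arrays a spread of up to 0.15 from the spots alone, a typical value and not one for a given probe. The share of probes well above background was 56.6% and 54.5% in LSK cells at day 10 and day 0, against 52.0% and 47.6% in CD45-negative cells at day 10 and day 0. All 4 arrays carried 1 scan time in their file headers.

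The labels of the sorts were checked against marker genes. Of 10 stem and progenitor markers, 10 and 9 were well above background in LSK cells at day 10 and day 0, against 7 and 4 in CD45-negative cells at day 10 and day 0. Ptprc, which encodes CD45 itself, was well above background in the CD45-negative sort on both days, at 5.58 at day 10 and 3.10 at day 0. Of the 10 stromal markers 9, and all 13 erythroid markers on the array were also above background in this sort at day 0. The LSK arrays read such markers too, with 8 and 9 of the 13 erythroid markers above background at day 10 and day 0. Of the stromal markers 7 of 10 were so on each day. Of the leukocyte, T and NK markers, Ptprc among them, 9 and 10 of 10 were so at day 10 and day 0. Both sorts are therefore called here by their label and not by a cell type. In such bulk samples, fewer cells of a type and less RNA per cell cannot be told apart.

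The promoters of 5 of the genes are shown because the genes behaved differently on the arrays. Pf4, Ppbp and Gp9 were far lower in CD45-negative cells at day 10, Selp was higher in LSK cells at day 10, and Gp1bb differed by less than 2-fold in all 4 comparisons, except where arrays were aligned on their medians or on spike-in controls. Each runs 5′ to 3′ on the gene's strand from 250 bases before to 50 bases after the gene's start, from RefSeq on GRCm38.p6. RefSeq entries were matched for 9 of the 10 genes, all but Vwf. Capitals mark GATAA or its reverse complement TTATC, the core bound by GATA factors, and GGAAGT or its reverse complement ACTTCC, a core bound by ETS factors.
Pf4 promoter, chr5:90772185-90772484, plus strand: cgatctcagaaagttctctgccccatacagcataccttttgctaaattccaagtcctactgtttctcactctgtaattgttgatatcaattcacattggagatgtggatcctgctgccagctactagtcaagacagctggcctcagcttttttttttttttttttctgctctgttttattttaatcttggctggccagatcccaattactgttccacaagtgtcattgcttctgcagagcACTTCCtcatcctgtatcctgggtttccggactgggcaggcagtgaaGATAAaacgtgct
Ppbp promoter, chr5:90768268-90768567, plus strand: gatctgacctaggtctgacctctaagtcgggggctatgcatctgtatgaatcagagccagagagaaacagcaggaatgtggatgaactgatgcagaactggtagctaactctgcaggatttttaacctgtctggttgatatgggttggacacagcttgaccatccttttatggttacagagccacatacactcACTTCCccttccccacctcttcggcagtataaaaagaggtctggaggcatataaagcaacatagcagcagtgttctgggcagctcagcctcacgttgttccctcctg
Gp9 promoter, chr6:87777820-87778119, plus strand: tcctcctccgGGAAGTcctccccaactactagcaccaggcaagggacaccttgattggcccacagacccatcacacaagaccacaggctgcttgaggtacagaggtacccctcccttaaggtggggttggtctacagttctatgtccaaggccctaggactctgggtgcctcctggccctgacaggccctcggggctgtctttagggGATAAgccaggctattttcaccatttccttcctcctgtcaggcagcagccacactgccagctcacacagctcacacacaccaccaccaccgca
Selp promoter, chr1:164115014-164115313, plus strand: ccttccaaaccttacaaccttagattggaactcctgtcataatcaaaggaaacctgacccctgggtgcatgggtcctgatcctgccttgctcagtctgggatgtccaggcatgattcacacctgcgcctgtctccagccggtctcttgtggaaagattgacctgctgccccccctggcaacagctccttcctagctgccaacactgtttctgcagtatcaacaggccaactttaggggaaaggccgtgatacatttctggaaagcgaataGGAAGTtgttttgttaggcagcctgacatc
Gp1bb promoter, chr16:18622354-18622653, minus strand: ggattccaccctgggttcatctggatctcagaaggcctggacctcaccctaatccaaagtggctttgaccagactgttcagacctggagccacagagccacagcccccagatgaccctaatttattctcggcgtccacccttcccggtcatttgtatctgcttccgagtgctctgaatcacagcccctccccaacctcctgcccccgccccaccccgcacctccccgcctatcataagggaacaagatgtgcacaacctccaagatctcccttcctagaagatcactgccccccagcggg

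Pf4 and Ppbp are neighbours on chromosome 5, and their starts are 3917 bases apart. Pf4 holds 1 motif of each kind, with GGAAGT beginning 10 bases before the start and GATAA 37 bases after it. Gp9 holds both, with GATAA 43 bases and GGAAGT 240 bases before the start. Ppbp holds GGAAGT 57 bases before its start, and Selp holds it 20 bases after. Gp1bb has neither motif in this window. GATAA was found in 5 of the 9 promoters on either strand, against 25.4% of all 32851 promoters of this length, and GGAAGT in 7 of the 9, against 23.8%. No 2 matches overlapped. A match describes the letters only and is not evidence of binding.

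The next 3 probes are shown, because Vwf and Selp were read by a second, dimmer probe and because the Gp1bb probe has a base composition unlike the rest. All probes are 60 bases long, and the array files map these to transcripts without usable coordinates.
Vwf, dimmer probe: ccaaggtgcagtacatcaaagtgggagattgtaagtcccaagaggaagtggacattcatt
Selp, dimmer probe: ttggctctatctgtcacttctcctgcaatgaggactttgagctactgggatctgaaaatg
Gp1bb probe: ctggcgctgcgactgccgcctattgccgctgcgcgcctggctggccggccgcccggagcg
The Gp1bb probe is 80.0% G and C, while no other of the 12 exceeds 55.0%. None of the 12 probes was saturated on any array.

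**Figure D1:**
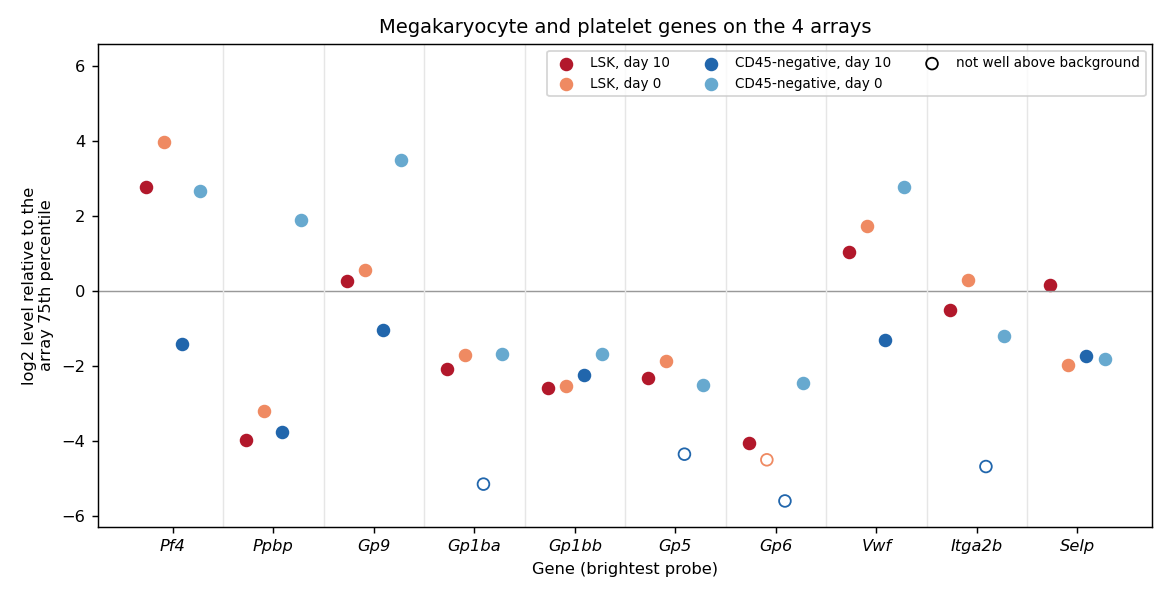
Log2 level relative to the array's 75th percentile (vertical axis) of the brightest probe of each of the 10 genes (horizontal axis) on the 4 arrays, 1 point an array, with open points where the probe was not well above background. CD45-negative cells at day 10 hold the 4 open points of Gp1ba, Gp5, Gp6 and Itga2b, and Gp6 has another in LSK cells at day 0.

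All 10 genes were well above background in LSK cells at day 10 and 9 of 10 at day 0, the exception being Gp6. In CD45-negative cells 6 of 10 were so at day 10, without Gp1ba, Gp5, Gp6 and Itga2b, and 10 of 10 at day 0. Of all 29353 named genes, 17460 and 17023 were so by at least 1 probe in LSK cells at day 10 and day 0. In CD45-negative cells 16536 and 15313 were so at day 10 and day 0. The 6 genes Pf4, Ppbp, Gp9, Gp1bb, Vwf and Selp were above background on all 4 arrays. By array, 6 of the 10 genes had their highest level in CD45-negative cells at day 0. These were Ppbp, Gp9, Gp1ba, Gp1bb, Gp6 and Vwf. Pf4, Gp5 and Itga2b were highest in LSK cells at day 0, and Selp alone was highest in LSK cells at day 10. None of the 10 was highest in CD45-negative cells at day 10. How often each array was highest over all genes was not counted, so these counts have no background share beside them. The processed signals of the 10 genes, summed and divided by the array's 75th percentile, came to 12.8 and 22.9 in LSK cells at day 10 and at day 0, and to 1.98 and 30.1 in CD45-negative cells at day 10 and day 0.

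The alpha-granule chemokines come first. Pf4 encodes platelet factor 4, a heparin-binding CXC chemokine released when platelets are activated. Its level was 2.79 and 3.97 in LSK cells at day 10 and day 0, against -1.41 and 2.68 in CD45-negative cells at day 10 and day 0. The CD45-negative cells at day 10 were thus far below the other 3 arrays, among which LSK cells at day 10 and CD45-negative cells at day 0 lay closer together than the 0.15 spread of repeated spots. Pf4 was 2.26-fold lower at day 10 in LSK cells and 17.0-fold lower in CD45-negative cells. The LSK level exceeded the CD45-negative level 18.4-fold at day 10 and 2.44-fold at day 0.

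Ppbp encodes pro-platelet basic protein, the precursor of the neutrophil-attracting chemokine CXCL7. Its level was -3.97 and -3.20 in LSK cells at day 10 and day 0, against -3.78 and 1.91 in CD45-negative cells at day 10 and day 0. One array, CD45-negative cells at day 0, was high and the other 3 were low. Those 3 levels lay near the lowest level called well above background on their arrays. That limit was -4.12 and -3.95 in LSK cells at day 10 and day 0, and -4.24 in CD45-negative cells at day 10. Between the days Ppbp was 1.70-fold lower at day 10 in LSK cells, a difference of -0.76 that was -0.41 with normexp. In CD45-negative cells Ppbp was 51.7-fold lower at day 10, a difference of -5.69 that was -3.70 with normexp. At day 0 it was 34.7-fold lower in LSK than in CD45-negative cells, while Pf4, its neighbour on the chromosome, was higher in LSK cells. At day 10, with both levels near that limit, the 2 populations differed by 1.14-fold in Ppbp.

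The GPIb-IX-V complex, the platelet receptor for von Willebrand factor, is built from the products of Gp1ba, Gp1bb, Gp9 and Gp5, and the 4 genes did not show 1 common pattern. Gp9, whose protein helps the complex reach the cell surface, was at 0.28 and 0.57 in LSK cells at day 10 and day 0, and at -1.05 and 3.51 in CD45-negative cells at day 10 and day 0. Gp9 was therefore highest in CD45-negative cells at day 0 and lowest in CD45-negative cells at day 10, with both LSK arrays between them. Gp9 was 1.23-fold lower at day 10 in LSK cells and 23.6-fold lower in CD45-negative cells.

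Gp1ba encodes the ligand-binding subunit of the complex. Its level was -2.08 and -1.71 in LSK cells at day 10 and day 0, against -5.16, not well above background, and -1.69 in CD45-negative cells at day 10 and day 0. At day 0 the 2 populations had nearly the same level, with a difference of -0.02, LSK minus CD45-negative, within the spread of repeated spots, though this was -0.22 with normexp and 1.73 on the spike-in scale. Gp1ba was at least 5.85-fold lower at day 10 in CD45-negative cells and 1.29-fold lower in LSK cells.

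Gp5 encodes the subunit of the complex that thrombin cleaves. Its level was -2.33 and -1.88 in LSK cells at day 10 and day 0, against -4.36, not well above background, and -2.50 in CD45-negative cells at day 10 and day 0. It was at least 3.33-fold lower at day 10 in CD45-negative cells and 1.36-fold lower in LSK cells. Gp5 thus followed Gp1ba in being lost from detection only on the array of CD45-negative cells at day 10.

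Gp1bb encodes the subunit linked to Gp1ba's product by a disulphide bond. Its level was -2.58 and -2.53 in LSK cells at day 10 and day 0, against -2.25 and -1.67 in CD45-negative cells at day 10 and day 0. Gp1bb was 1.49-fold lower at day 10 in CD45-negative cells and within the spread of repeated spots in LSK cells, at a difference of -0.05. Its 4 levels spanned 0.91 log2 units, against 4.56 for Gp9. The G and C content of its probe, shown above, sets it apart, and the part of this in the flat profile was not tested.

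Gp6 encodes the platelet collagen receptor. Its level was -4.06 and -4.51 in LSK cells at day 10 and day 0, the second not well above background, and -5.61, also not well above background, and -2.47 in CD45-negative cells at day 10 and day 0. Gp6 was thus seen clearly only in CD45-negative cells at day 0, and barely in LSK cells at day 10. It was at least 3.40-fold lower at day 10 in CD45-negative cells. No fold could be given between the days in LSK cells, where the day 10 level lay below the lowest detected level of the day 0 array, -3.95.

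Vwf encodes von Willebrand factor, which platelets and endothelial cells store and which ties platelets to exposed collagen. The brighter probe had levels of 1.05 and 1.74 in LSK cells at day 10 and day 0, and of -1.31 and 2.79 in CD45-negative cells at day 10 and day 0. The dimmer probe, printed above, had levels of -2.08 and -1.19 in LSK cells and of -3.96 and 0.14 in CD45-negative cells, in the same order of days. Both probes placed the 4 arrays in 1 order, with CD45-negative cells at day 0 on top, then LSK cells at day 0, LSK cells at day 10 and CD45-negative cells at day 10. In CD45-negative cells both probes gave a difference of -4.10, or 17.2-fold lower at day 10. In LSK cells the difference was -0.68 by the brighter and -0.89 by the dimmer probe.

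Itga2b encodes integrin alpha-IIb, also known as CD41, which pairs with the product of Itgb3 to form the fibrinogen receptor. Its level was -0.52 and 0.29 in LSK cells at day 10 and day 0, against -4.69, not well above background, and -1.20 in CD45-negative cells at day 10 and day 0. LSK cells were higher than CD45-negative cells on both days, 2.82-fold at day 0 and at least 13.2-fold at day 10. Itga2b was 1.75-fold lower at day 10 in LSK cells and at least 8.18-fold lower in CD45-negative cells. Its partner Itgb3 was not lower in CD45-negative cells at day 10. The Itgb3 level was 2.19 and 2.30 in LSK cells at day 10 and day 0, against 2.02 and 1.01 in CD45-negative cells at day 10 and day 0. The difference of Itgb3 in CD45-negative cells was 1.02 by its brighter probe and 0.34 by its other probe.

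Selp encodes P-selectin, the adhesion receptor that platelets and endothelial cells move from their granules to the surface and that captures leukocytes. The brighter probe had levels of 0.17 and -1.98 in LSK cells at day 10 and day 0, and of -1.73 and -1.82 in CD45-negative cells at day 10 and day 0. LSK cells at day 10 stood above the other 3 arrays, whose levels ran only between -1.98 and -1.73. The dimmer probe was well above background only in LSK cells at day 10, at -3.44. In LSK cells Selp was 4.45-fold higher at day 10, and this difference lay between 1.45 and 2.24 log2 units over the 6 other ways of scaling or summarising the arrays. In CD45-negative cells the difference was 0.09, within the spread of repeated spots. Its sign turned under normexp background correction, at -0.34, and with the mean of probes, at -0.19, and it was 3.35 on the spike-in scale.

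**Figure D2:**
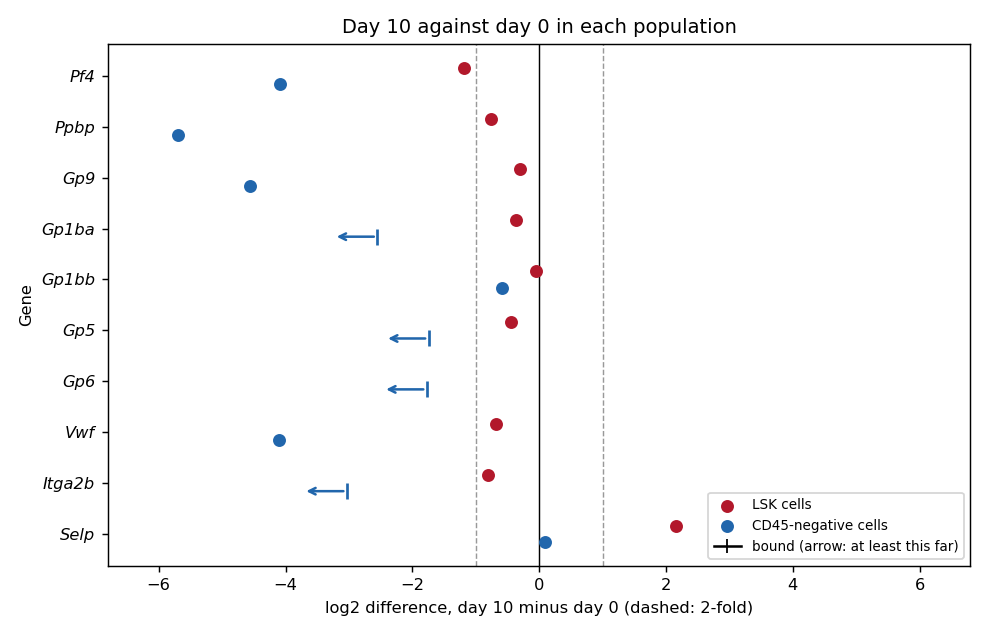
Log2 difference, day 10 minus day 0 (horizontal axis), of each gene (vertical axis) in LSK cells and in CD45-negative cells, 1 array a group, with dashed lines at 2-fold and arrows for lower bounds on the size of a difference. In CD45-negative cells 8 of 10 genes lie left of the 2-fold line, of which 4 still had a negative difference and the other 4 no value when arrays were aligned on spike-in controls; in LSK cells Selp lies right of the line and Pf4 left of it.

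Across the days in LSK cells, 1 of the 9 genes with a value was at least 2-fold higher at day 10 (Selp) and 1 was at least 2-fold lower (Pf4), against 1.84% of all genes higher and 3.57% lower. The median difference over the 9 genes was -0.44, against -0.01 over all genes measured. The difference was below 0 for every gene but Selp, and apart from Pf4 none of these reached 2-fold.

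Across the days in CD45-negative cells, 8 of 10 genes were at least 2-fold lower at day 10 and 0 were higher, against 20.2% of all genes lower and 24.2% higher. Of the 8, 4 were measured (Pf4, Ppbp, Gp9 and Vwf) and 4 are bounds (Gp1ba, Gp5, Gp6 and Itga2b). The median was -4.10 over the 6 measured genes and -2.79 with the bounds included, against 0.19 over all genes measured. With no replicate arrays the difference between the populations has no test; the day difference in CD45-negative cells minus that in LSK cells was -4.93 for Ppbp, -4.26 for Gp9, -3.42 for Vwf, -2.91 for Pf4, -2.06 for Selp and -0.53 for Gp1bb. Selp's value here came from the LSK cells, while those of the first 4 came mainly from the CD45-negative cells. These values are on the percentile scale, and several turn on the spike-in scale.

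The CD45-negative result depends on how the arrays are set on a common scale. The arrays carry probes for control RNAs that are spiked into each sample; whether equal amounts were added is not given in the labels. The 5 spike-in probes used here had a mean log2 signal of 8.85 and 10.66 in CD45-negative cells at day 10 and day 0, and of 10.14 and 9.69 in LSK cells at day 10 and day 0. Aligning the arrays on these probes moved the median difference of all genes by 3.25 in CD45-negative cells. On that scale Ppbp still differed by -2.44, Gp9 by -1.31, Vwf by -0.85 and Pf4 by -0.84, all below the all-gene median of 3.44 and only the first 2 past 2-fold, whereas Gp1bb turned to 2.67 and Selp stood at 3.35. The 4 genes given as bounds had no value there. In LSK cells the spike-in alignment moved the all-gene median by -0.19, and none of the 9 genes with a value changed sign. The LSK differences on that scale were -0.95 for Ppbp, -0.49 for Gp9, -0.87 for Vwf, -1.37 for Pf4, -0.24 for Gp1bb and 1.96 for Selp. There the day difference stayed more negative in CD45-negative than in LSK cells for Ppbp and Gp9, differed between the populations by less than the spread of repeated spots for Vwf, and was less negative or more positive for Pf4, Gp1bb and Selp.

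**Figure D3:**
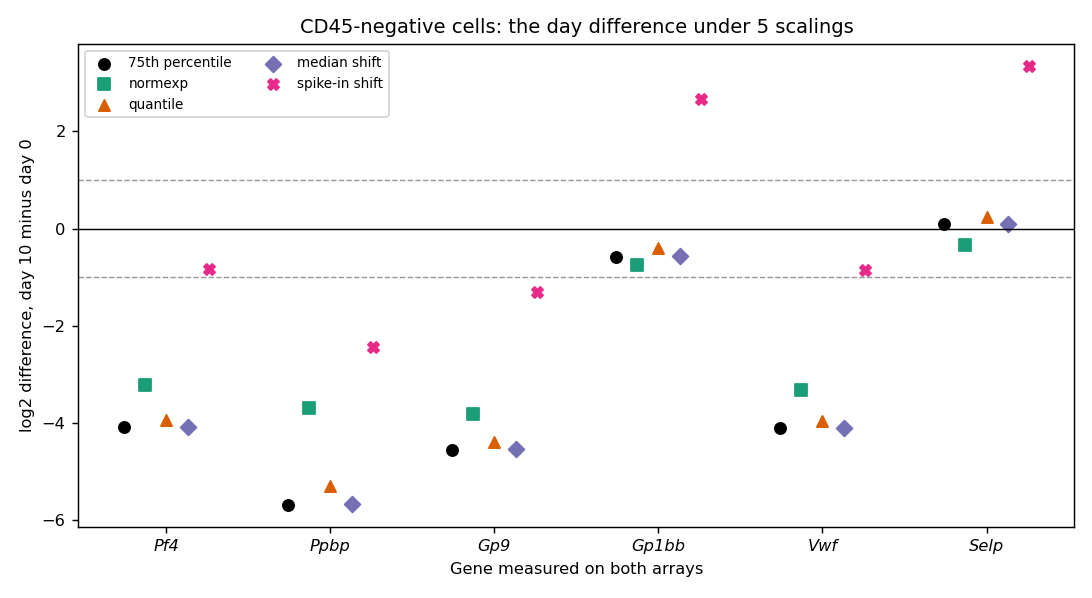
Log2 difference, day 10 minus day 0, in CD45-negative cells (vertical axis) of the 6 genes measured on both arrays (horizontal axis) under 5 ways of setting the arrays on a common scale. Pf4, Ppbp, Gp9 and Vwf lie below 0 under all 5, while Gp1bb turns to 2.67 under the spike-in shift. Selp turns to -0.34 under normexp and stands at 3.35 under the spike-in shift, where the median over all genes is 3.44.

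Setting the populations against each other, LSK over CD45-negative, separated the days. At day 10, 7 of 10 genes were at least 2-fold higher in LSK cells and 0 were lower, against 12.9% of all genes higher and 12.9% lower. Pf4 was 18.4-fold, Vwf 5.17-fold, Selp 3.75-fold and Gp9 2.51-fold higher, and Itga2b at least 13.2-fold, Gp1ba at least 4.46-fold and Gp5 at least 3.76-fold higher. The median over the 6 measured genes was 1.62, or 1.91 with bounds, against 0.01 over all genes measured. On the spike-in scale it was -0.07, against -1.69 over all genes, and there Gp9 turned to -0.36 and Pf4 stayed at 2.51. Ppbp and Gp1bb were the 2 genes with a negative difference, at -0.19 and -0.33; both turned with normexp, to 0.15 and 0.03, and both were past 2-fold lower on the spike-in scale, at -1.88 and -2.02. With normexp the bounds of Gp1ba and Gp5 shrank to 0.93 and 0.74, under 2-fold.

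At day 0, 2 of 10 genes were at least 2-fold higher in LSK cells and 4 were lower, against 23.0% of all genes higher and 19.0% lower. The 2 higher genes were Itga2b, 2.82-fold, and Pf4, 2.44-fold. The 4 lower genes were Ppbp, 34.7-fold, Gp9, 7.63-fold, Gp6, at least 2.79-fold, and Vwf, 2.07-fold, though on the spike-in scale the Vwf difference turned from -1.05 to 0.70. With normexp Itga2b stood at 0.89, Vwf at -0.89 and the bound of Gp6 at -0.73, all under 2-fold. The median over the 9 measured genes was -0.15, against 0.08 over all genes measured. Among the genes past 2-fold on the percentile scale, the directions were thus mixed at day 0 and not at day 10. On the spike-in scale 2 genes were higher and 2 lower at day 10, against 182 and 13482 of all genes. At day 0, 5 were higher and 2 lower on that scale, against 13617 and 727 of all genes. The comparisons of days and of populations share arrays, so their values are not independent of each other.

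**Figure D4:**
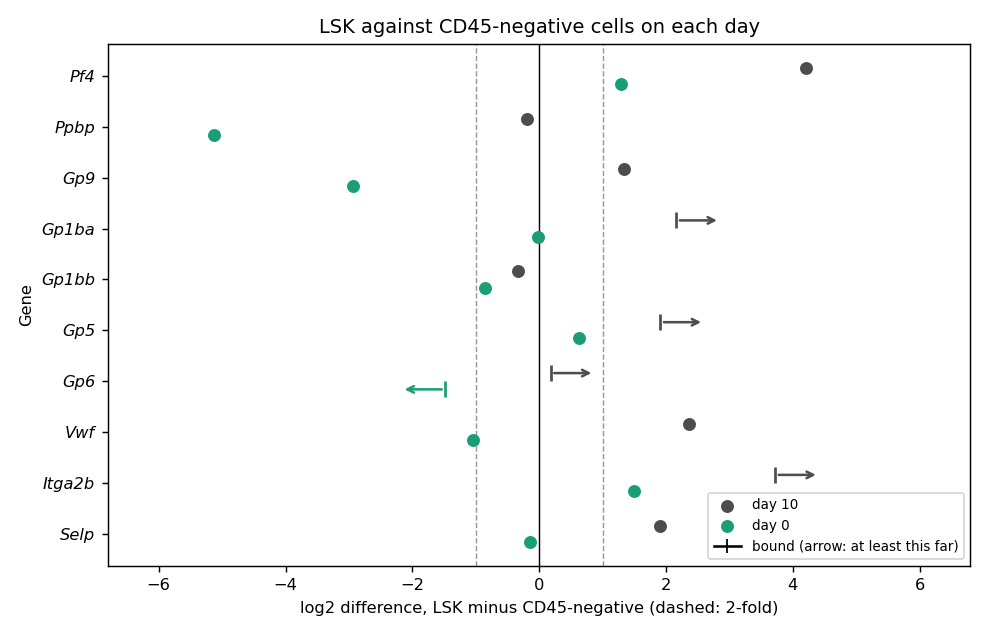
Log2 difference, LSK minus CD45-negative (horizontal axis), of each gene (vertical axis) at day 10 and day 0, 1 array a group, with dashed lines at 2-fold and arrows for bounds. At day 10, 7 of 10 genes lie right of the 2-fold line, while on the spike-in scale 2 of 9 lie right and 2 left. At day 0, 2 lie right and 4 left, while on the spike-in scale 5 of 9 lie right and 2 left. Of all genes, that scale puts 182 right and 13482 left at day 10, and 13617 right and 727 left at day 0.

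Among genes measured on all 4 arrays, the profiles of Gp9 and Vwf were the closest pair, at a root mean square distance of 0.76 log2 units after each profile was centred on its own mean. Ppbp and Gp9 followed at 1.02 and Pf4 and Vwf at 1.06. Ppbp and Selp were farthest apart, at 2.89. Over 13795 genes above background and unsaturated on all 4 arrays, the profile nearest to Pf4 was that of Treml1, at 0.38, followed by Cavin2 at 0.58 and Vldlr at 0.63. Nearest to Vwf were Ndrg2 at 0.16, LOC100045919 at 0.18 and Lama3 at 0.30. Nearest to Selp were Clec4a3 at 0.21, Fcgr1 at 0.22 and H2-Aa at 0.30. With 4 arrays these distances describe the profiles and carry no test.

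A further 32 genes of platelet proteins were looked up to see whether they moved with these 10. In CD45-negative cells 23 had a value, of which 11 were at least 2-fold lower at day 10, against 20.2% of all genes. Another 6 were higher, against 24.2%. The median of the list was 0.26 over the measured genes and 0.11 with bounds. Treml1, a receptor of platelet alpha granules, had levels of -3.51 and 0.07 at day 10 and day 0, a difference of -3.58. Cd36, a scavenger receptor that red cell precursors also carry, was 51.7-fold lower, with levels of -0.55 and 5.14. Clu, a chaperone stored in alpha granules, was at least 14.4-fold lower, and Myl9, a myosin light chain of the contractile platelet skeleton, 7.52-fold lower. On the spike-in scale 18 of 23 were higher and 1 lower, with a median of 3.51, against 3.44 over all genes. That scale put 15638 of all genes higher and 177 lower. Treml1 stood there at -0.33, Cd36 at -2.44 and the bound of Clu at -0.60, and Myl9 turned to 0.34. In LSK cells 25 had a value, with a median of -0.16. At day 10, 2 were at least 2-fold higher and 2 lower, against 1.84% and 3.57% of all genes. Cd36 was 3.96-fold higher, though its difference was only 0.58 with normexp, and Thbs1, the alpha-granule adhesive protein thrombospondin 1, at least 3.01-fold higher, a bound of 1.59 that shrank to 0.46 with normexp, so that no gene of the list stayed 2-fold higher there. Gng11, a G protein gamma subunit, was 2.08-fold lower. P2ry1, a receptor for ADP, lay at the 2-fold line, with a difference of -0.59 with normexp and -0.10 with the mean of its probes.

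The 14 regulators of the megakaryocyte lineage were treated in the same way. In LSK cells 0 of the 14 were at least 2-fold higher at day 10 and 1 was lower, with a median of -0.11. The shares over all genes were 1.84% higher and 3.57% lower. Etv6, an ETS-family repressor, was 1.98-fold higher by its brighter probe, a difference of 0.99, but stood at -0.21 by its other probe. Gata2, a GATA factor of stem cells and early megakaryocytes, was 1.74-fold lower and Ldb1, a cofactor that bridges such factors, 1.59-fold lower, both under the 2-fold size.

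In CD45-negative cells 8 of the 14 regulators were at least 2-fold lower at day 10, against 20.2% of all genes. Another 4 were higher, against 24.2%. The median was -1.38 over the measured regulators. On the spike-in scale, however, 9 of 13 were higher and 1 lower, with a median of 1.87, against 3.44 over all genes. That scale put 15638 of all genes higher and 177 lower. The largest differences were those of Tal1, 22.7-fold, Gata1, 11.9-fold, Gfi1b, 8.57-fold, and Nfe2, 7.96-fold lower, transcription factors that act in both the red cell and the megakaryocyte lineage. On the spike-in scale Nfe2 and Gfi1b turned to 0.26 and 0.15, Gata1 stood at -0.32 and Tal1 at -1.25. Fli1, an ETS factor of the megakaryocyte lineage, differed the other way, at 1.24 in CD45-negative cells and -0.05 in LSK cells. Gata1 had levels of -0.85 and -0.29 in LSK cells at day 10 and day 0, and of -0.64 and 2.94 in CD45-negative cells at day 10 and day 0.

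Markers of other cells moved in the CD45-negative sort together with the platelet genes. Each of the 13 erythroid markers was past 2-fold lower at day 10, against 20.2% of all genes. The median difference of these markers was -4.72. Their summed signal, in units of the array's 75th percentile, was 324 at day 10 and 2678 at day 0. Alas2, which encodes the first enzyme of the erythroid heme pathway, was lower by 45.7-fold, and it stayed at -2.26 on the spike-in scale, where 9 of the 13 markers were lower and 1 higher. Each of the 9 stromal markers with a value was past 2-fold lower as well, at a median of -3.15. Their summed signals were 15.5 at day 10 and 144 at day 0. On the spike-in scale 0 of 8 stromal markers were lower and 1 higher, with a median of 0.10, against 3.44 over all genes. That scale put 177 of all genes lower and 15638 higher. All 10 leukocyte, T and NK cell markers were at least 2-fold higher at day 10, against 24.2% of all genes. These markers had summed signals of 131 at day 10 and 10.2 at day 0. Ptprc among them differed by 2.48. The part of these shifts in the values of the platelet genes was not tested.

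Endothelial markers are given because endothelial cells also make Vwf and Selp. In CD45-negative cells 2 of 11 with a value were at least 2-fold higher at day 10 and 2 lower. The shares over all genes were 24.2% higher and 20.2% lower. The median was -0.32 over the measured markers, with summed signals of 10.4 at day 10 and 7.47 at day 0. Cdh5, the adherens junction cadherin of endothelium, differed by -0.32, while Pecam1 was 3.24-fold higher, at a difference of 1.70 that was 0.88 with normexp. Cldn5, a tight junction protein, was at least 4.10-fold lower and Esam, an endothelial adhesion molecule, at least 3.72-fold lower. On the spike-in scale 9 of 9 were higher, with a median of 2.93. Over all genes the median there was 3.44, with 15638 higher and 177 lower. In LSK cells 0 of 12 were at least 2-fold higher and 2 lower (0 of 11 lower with normexp), against 1.84% and 3.57% of all genes. The median was 0.12, with summed signals of 35.0 at day 10 and 33.8 at day 0. Cdh5 was at least 4.42-fold lower at day 10 there, a bound of -2.14. This bound shrank to -0.73 with normexp and to -0.69 with the mean of probes. Pecam1 differed by 0.30 in LSK cells. The part of endothelial cells in the Vwf and Selp values was not tested.

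**Figure D5:**
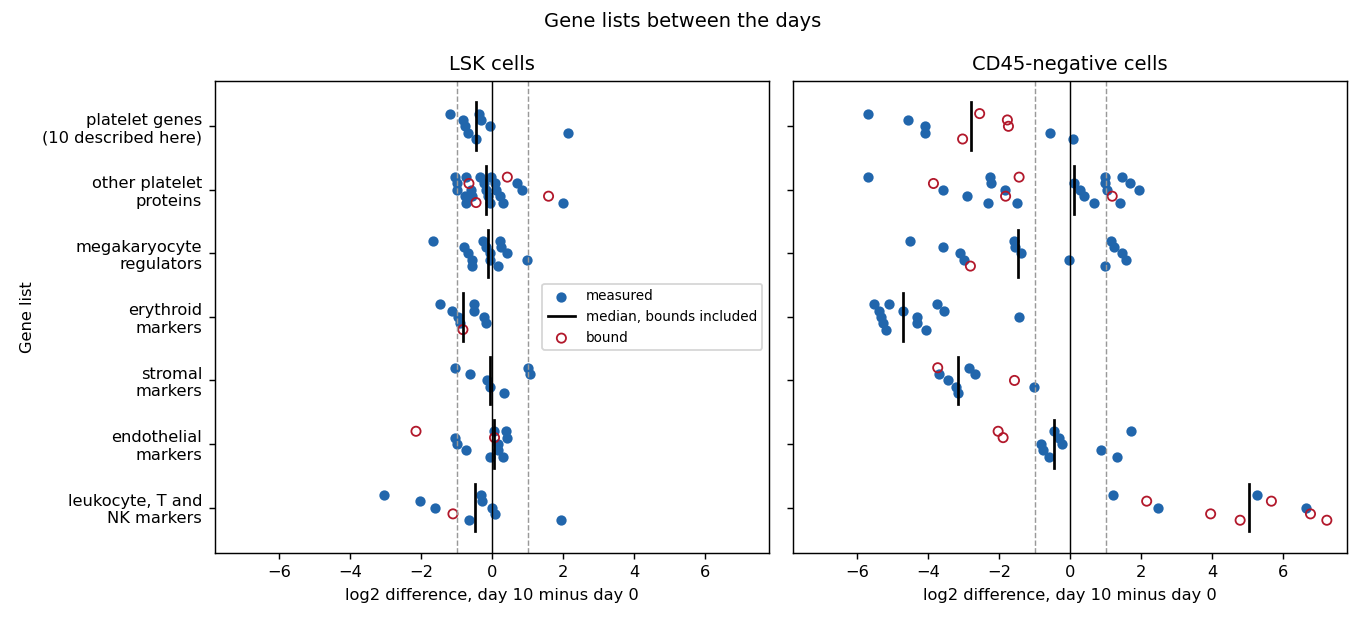
Log2 difference, day 10 minus day 0 (horizontal axis), of each gene of 7 lists (vertical axis) in LSK cells (left) and CD45-negative cells (right), with filled points measured, open points bounds, black bars the list medians with bounds included and dashed lines at 2-fold. In CD45-negative cells the platelet genes (median -2.79) lie on the same side as the erythroid (-4.72) and stromal (-3.15) markers and opposite the leukocyte, T and NK markers (5.02). Over measured genes alone, the medians of the stromal markers (-3.15), regulators (-1.38) and endothelial markers (-0.32) turn to 0.10, 1.87 and 2.93 on the spike-in scale. The median over all genes on that scale is 3.44.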

How the data were processed

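Labelling used an oligo-dT primer and the dye Cy3, per the labels' protocols. Scans were read by the authors with version 10.5.1.1 of Agilent Feature Extraction, as the file headers record, and the deposited spot files hold fluorescence intensity values, of which the processed signal is corrected for background. The deposited flags for detection, saturation, outlier spots and control type are codes, not measurements (unit: other). In the deposited series table the log2 values equal the log2 processed signal minus a constant for each array, within 0.001 for at least 99.977% of probes; its column medians were -3.288, -3.214, -3.706 and -3.238 in the LSK arrays of day 10 and day 0, then the CD45-negative arrays of day 10 and day 0. The design build is mm9 per the file headers.

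Control and outlier spots were removed, spots of a probe were averaged on the log2 scale, and the 75th percentile of the array was subtracted. A gene is its probe of highest mean level over the 4 arrays; 20679 noncoding probes were kept apart. Gene names are those printed in the spot files, brought up to date with RefSeq through their accessions; a match was found for 28128 of 40628 gene probes (69.2%). Calls use a fold of 2. The calculation was tested on simulated data. The number of arrays limits the precision. Alternatives were normexp background correction (limma 3.58.1, offset 50, R 4.3.3), quantile normalization, a median shift, a spike-in shift, the deposited table, the mean of probes, no detection filter, and detection on all 4 arrays. Python 3.11.15, numpy 2.4.6 and pandas 2.3.3 were used.

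The 10 genes and the 8 other gene lists, which hold 110 genes of which 108 are on the array, were chosen with earlier results of these data known. The lists are other platelet proteins, megakaryocyte regulators, chemokine neighbours of Pf4, and markers of erythroid, endothelial, leukocyte (with T and NK), stem and progenitor, and stromal cells. All 10 genes are given with every probe. From each other list up to 4 genes with the largest difference between the days are named, and Ptprc, Itgb3, Gata1, Nfe2, Fli1, Cdh5, Pecam1 and Alas2 always; for Pf4, Vwf and Selp the 3 nearest profiles are named. One gene that this rule names is not reported here, though the counts and medians of its lists include it.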

Additional observations from a re-analysis of the deposited data

How the results depend on the processing

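Of the differences of the 10 genes over the 4 comparisons, 39 had a value. All 39 kept their sign and their side of 2-fold with the deposited table. The sign and the side were kept in 37 and 39 of 39 with the mean of probes, 39 and 38 of 39 with the median shift, 35 and 34 of 39 with normexp, 37 and 37 of 38 with quantile normalization, and 27 and 17 of 33 with the spike-in shift. Normexp gave a median over the genes of -3.28 between the days in CD45-negative cells and of 1.24 for LSK minus CD45-negative cells at day 10; at day 0 it gave -0.32, with 1 gene higher and 2 lower. The median shift gave medians of 1.45 at day 10 and -0.35 at day 0 for LSK minus CD45-negative cells. With the spike-in shift the median was -0.63 between the days in LSK cells and -0.84 in CD45-negative cells, where 2 genes were higher and 2 lower. With that shift LSK minus CD45-negative cells had a median of -0.07 at day 10, with 2 genes higher, 2 lower and Gp9 at -0.36, and a median of 1.60 at day 0, with 5 higher, 2 lower and Vwf at 0.70. Without a detection filter the medians were -3.48 between the days in CD45-negative cells and 1.97 and -0.51 for LSK minus CD45-negative cells at day 10 and day 0. Requiring detection on all 4 arrays leaves 6 of the 10 genes; 4 were then lower between the days in CD45-negative cells, 4 were higher in LSK than in CD45-negative cells at day 10, and at day 0 the median was -0.96 with 1 higher. The cause of the other shifts was not tested.

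Among all genes past 2-fold, 34.0% were higher at day 10 in LSK cells (17.6% with the spike-in shift) and 54.5% in CD45-negative cells (98.9%; 30.7% without a detection filter). For LSK over CD45-negative cells 50.1% were higher at day 10 (1.33% with the spike-in shift, 37.5% with the median shift) and 54.7% at day 0 (94.9% with the spike-in shift). In LSK cells 328 genes were higher and 637 lower between the days, against 82 and 183 with normexp. Signal over background limits Gp1ba, Gp5, Gp6 and Itga2b in CD45-negative cells at day 10 to bounds. No paired analysis was possible because each group has 1 array.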

Other observations

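Pf4 and Ppbp belong to the CXC chemokine family, and 5 other members of that family were looked up beside them. Cxcl1, Cxcl3, Cxcl5 and Cxcl15 were not well above background on any of the 4 arrays. Cxcl2, a chemokine that attracts neutrophils, was so in CD45-negative cells on both days, at -1.59 at day 10 and -1.25 at day 0, and on neither LSK array. Its difference of -0.34 between the days, under 2-fold, stands beside -5.69 for Ppbp and -4.09 for Pf4 in the same cells; on the spike-in scale it turned to 2.91.

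In LSK cells 2 of the 9 stem and progenitor markers with a value were at least 2-fold lower at day 10 and 0 were higher. Over all genes in LSK cells, 3.57% were lower and 1.84% higher. The median of these markers was -0.39. The count of lower markers was 1 with normexp and with the mean of probes. Meis1, a homeobox factor of stem cells, was 2.15-fold lower by its brighter probe, while its other probe gave a difference of -0.30. Procr, a stem cell surface receptor, was 1.58-fold lower and Hlf, a stem cell transcription factor, 1.38-fold lower, both under the 2-fold size. The differences of Vwf and Itga2b in these cells, -0.68 and -0.81, were of similar size to that of Procr, at -0.66. Of the leukocyte, T and NK markers, 4 of 10 were at least 2-fold lower in LSK cells at day 10 and 1 was higher, against 2 lower and 1 higher with normexp; Cd8a, a T cell co-receptor, was 8.26-fold lower and Gzma, a granule protease of cytotoxic cells, 3.86-fold higher. Of 9 erythroid markers with a value, 2 were at least 2-fold lower in LSK cells at day 10, Rhd, a red cell membrane protein, 2.75-fold and Slc4a1, the red cell anion exchanger, 2.19-fold; on the spike-in scale 5 were lower. Of 7 stromal markers with a value, 2 were higher and 1 lower, with Col1a2, a collagen chain, 2.12-fold higher and Spp1, osteopontin, 2.04-fold lower. All 3 lay near the 2-fold line, since 0 were higher and 0 lower with normexp, and 0 higher and 1 lower on the spike-in scale.

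In CD45-negative cells 1 of 6 stem and progenitor markers with a value was at least 2-fold higher at day 10 and 1 was lower. Over all genes, 24.2% were higher and 20.2% lower. The higher marker was Ly6a, which encodes Sca-1 and is also carried by many T cells, at 9.47-fold. On the spike-in scale 7 of 7 markers with a value were higher, with a median of 3.68. Over all genes the median there was 3.44, with 15638 higher and 177 lower.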
